A study of Mus musculus with 3 samples.

Results

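CpG-dense stretches of DNA that lie far from annotated genes were examined for DNA methylation in mouse spermatogonia. The genome was divided into non-overlapping regions of 1 kb. A region was taken when it lay on an autosome, held at least 40 distinct CpG positions in the union of the 3 libraries, lay outside all RefSeq genes of mm10 and had its centre more than 10 kb from every transcript start. With at least 10 methylation calls in each library, 261 regions remained, out of 603716 autosomal regions with as many calls. Before this minimum of calls there were 265 regions.

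The study sequenced bisulfite-treated DNA of spermatogonia at P7, the male germ cells that have passed through *de novo* methylation before birth, from C57BL6/J mice. The cells were isolated by FACS through EpCAM, an epithelial adhesion protein that undifferentiated germ cells carry. The genotypes were WT, *Pld6* KO and *Dnmt3l* KO (labelled Dnmt3L KO), and 1 library of each was analysed. Both KO lines had been backcrossed to this strain, and all cells of a KO animal lack the gene. The paper describes biological replicates for each genotype, with heterozygous animals in the WT category, and which of these mice a deposited file holds, or whether it pools them, is not given in the sources used here. Each genotype is thus a single library without a spread between replicates, the genotypes were not tested against each other, and effects of genotype and of library cannot be told apart.

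Most CpG sites of a mammalian genome are methylated, and CpG is rare because methylated cytosines mutate to thymine. CpG islands are short CpG-rich stretches that mostly lack methylation, and most of them cover gene promoters. Others, called orphan CpG islands, lie away from annotated starts, and some of those act as promoters of unannotated transcripts or as enhancers. CpG-rich DNA also occurs in young retrotransposons, which germ cells methylate. DNMT3L is a cofactor of the *de novo* DNA methyltransferases. PLD6 is a mitochondrial protein needed to make piRNAs, the small RNAs that direct methylation to retrotransposons in prospermatogonia.

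Stretches of 300 bases from 4 of the regions are shown first, on the plus strand of mm10 with each CG in capitals, because they stand for the patterns described below. The stretch of chr15:85671249-85671548 comes from the region with the most CpG positions, 138, and holds 51 CG. It was unmethylated in WT.
chr15:85671249-85671548: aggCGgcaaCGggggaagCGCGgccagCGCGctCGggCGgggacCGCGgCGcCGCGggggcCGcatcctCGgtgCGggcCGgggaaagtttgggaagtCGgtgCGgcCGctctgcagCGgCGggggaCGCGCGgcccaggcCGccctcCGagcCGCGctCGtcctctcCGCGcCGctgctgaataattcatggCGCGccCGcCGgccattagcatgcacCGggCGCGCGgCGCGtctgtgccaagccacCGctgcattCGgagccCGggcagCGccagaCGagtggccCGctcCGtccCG
The stretches of chr12:88092051-88092350, with 22 CG, and of chr7:18380283-18380582, with 20 CG, come from regions that were methylated in WT. The former kept the highest level of the named regions in *Dnmt3l* KO, and the latter fell most in *Pld6* KO among the regions with at least 30 calls in each library.
chr12:88092051-88092350: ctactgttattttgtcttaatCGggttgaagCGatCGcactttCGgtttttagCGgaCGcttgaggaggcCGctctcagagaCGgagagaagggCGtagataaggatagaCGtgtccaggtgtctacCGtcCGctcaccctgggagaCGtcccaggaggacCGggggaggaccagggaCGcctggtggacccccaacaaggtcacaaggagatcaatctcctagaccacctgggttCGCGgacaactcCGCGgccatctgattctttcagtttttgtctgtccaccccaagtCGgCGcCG
chr7:18380283-18380582: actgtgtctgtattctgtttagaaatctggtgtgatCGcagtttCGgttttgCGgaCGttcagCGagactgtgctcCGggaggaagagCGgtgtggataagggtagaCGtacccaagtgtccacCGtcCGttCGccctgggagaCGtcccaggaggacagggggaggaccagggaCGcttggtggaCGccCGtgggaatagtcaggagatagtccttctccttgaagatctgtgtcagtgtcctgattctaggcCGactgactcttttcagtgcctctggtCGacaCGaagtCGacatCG
These stretches resemble each other. Aligned by blastn over 163 positions, they were 82.2% identical. The stretch of chr4:12113642-12113941, with 23 CG, comes from the region with the largest increase in *Pld6* KO.
chr4:12113642-12113941: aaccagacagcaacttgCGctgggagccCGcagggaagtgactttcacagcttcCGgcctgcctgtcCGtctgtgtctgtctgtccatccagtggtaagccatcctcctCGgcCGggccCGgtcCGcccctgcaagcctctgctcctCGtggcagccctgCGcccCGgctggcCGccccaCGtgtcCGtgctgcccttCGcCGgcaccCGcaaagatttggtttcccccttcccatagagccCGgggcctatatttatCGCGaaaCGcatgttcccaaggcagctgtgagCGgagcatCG

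There were 43757722 calls in the WT library, 64076569 in that of *Pld6* KO and 19289688 in that of *Dnmt3l* KO. A region's level is its methylated calls divided by all calls at its CpG sites, as a fraction. The median region had 138 WT calls, 168 *Pld6* KO calls and 51 *Dnmt3l* KO calls. A 95% Wilson interval computed from the calls is given with many levels. It covers counting error only and can be too narrow, since calls of 1 read are linked. Exon 1 of *Pld6* had 0 calls in *Pld6* KO against 90 in WT, and exons 4 to 9 of *Dnmt3l* had 0 calls in *Dnmt3l* KO against 68 in WT, so that each KO library lacked sequence of its targeted gene. The start of *Kcnq1ot1*, which somatic cells carry about equally methylated and unmethylated and male germ cells unmethylated, had levels of 0.0780, 0.0700 and 0.0154 in WT, *Pld6* KO and *Dnmt3l* KO, in this order. The region 2 to 4 kb upstream of *H19*, which male germ cells carry methylated, had levels of 0.859, 0.884 and 0.148 in the same order. In *Dnmt3l* KO this marker was thus low, and whether the genotype or the cells account for it was not tested.

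Most CpG-dense regions far from genes lacked methylation in WT. The median level was 0.0119 in WT and 0.0162 in *Pld6* KO, and 0 in the *Dnmt3l* KO library. In WT, 236 of the 261 regions were under 0.2, which is 90.4% (95% Wilson interval 86.2% to 93.4%). Of the remaining 25, 5 lay between 0.2 and 0.6 and 20 at 0.6 or above. The distribution was thus split into a large unmethylated and a small methylated class, with few regions between them. Of the 261 regions, 233 were under 0.2 in all 3 libraries, and 16 had no methylated call in any library.

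**Figure D1:**
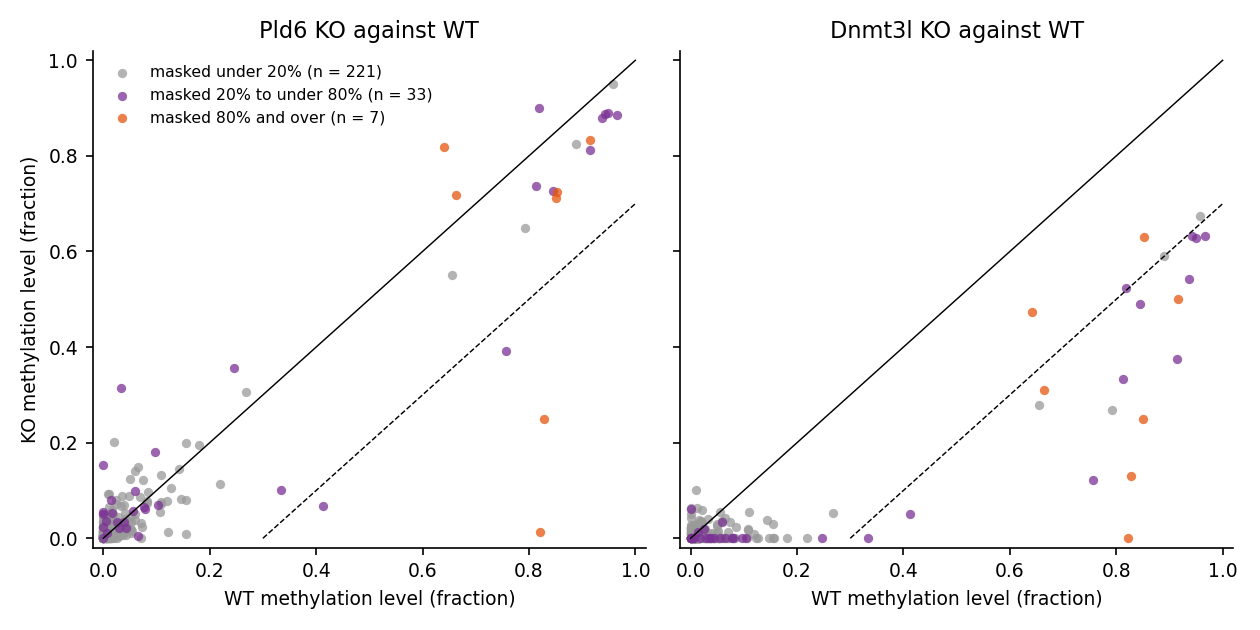
Each point is 1 of the 261 CpG-dense regions far from genes, with its WT level on the x axis and its level in *Pld6* KO (left) or *Dnmt3l* KO (right) on the y axis, both as fractions, coloured by the share of bases that the reference marks as repeat. The solid line marks equal levels and the dashed line a level 0.3 below WT. Most points sit near 0 in both panels, and of the regions with a WT level of at least 0.6, 3 lie below the dashed line on the left and 15 on the right.

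The pooled level over all calls of the 261 regions was 0.0628 in WT (0.0612 to 0.0645). It was 0.108 in *Pld6* KO (0.106 to 0.110) and 0.0315 in the *Dnmt3l* KO library (0.0297 to 0.0334). This value rests on few regions. A group of 6 regions had more than 20 calls for each covered site in WT, and held 47584 of the 83769 WT calls. Without them the pooled levels were 0.0574 for WT, 0.0663 for *Pld6* KO and 0.0255 for *Dnmt3l* KO, so that most of the excess of *Pld6* KO over WT in the pooled value came from these regions. The medians over regions are therefore used in what follows.

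Sets of regions were taken for comparison. CpG-dense regions within 1 kb of a transcript start, 14375 in number, had a WT level under 0.2 in 99.7% (99.7% to 99.8%), with a median of 0.00541. CpG-dense regions inside genes but more than 10 kb from every start, 613 in number, were under 0.2 in 68.0% (64.2% to 71.6%), with a median of 0.0895. The share far from genes lay between these, and the intervals do not overlap. Regions far from genes with 10 to 39 CpG positions, 101108 in number, were under 0.2 in 8.45%, with a median WT level of 0.857. Neighbouring regions are not independent, and these intervals treat them as if they were.

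**Figure D2:**
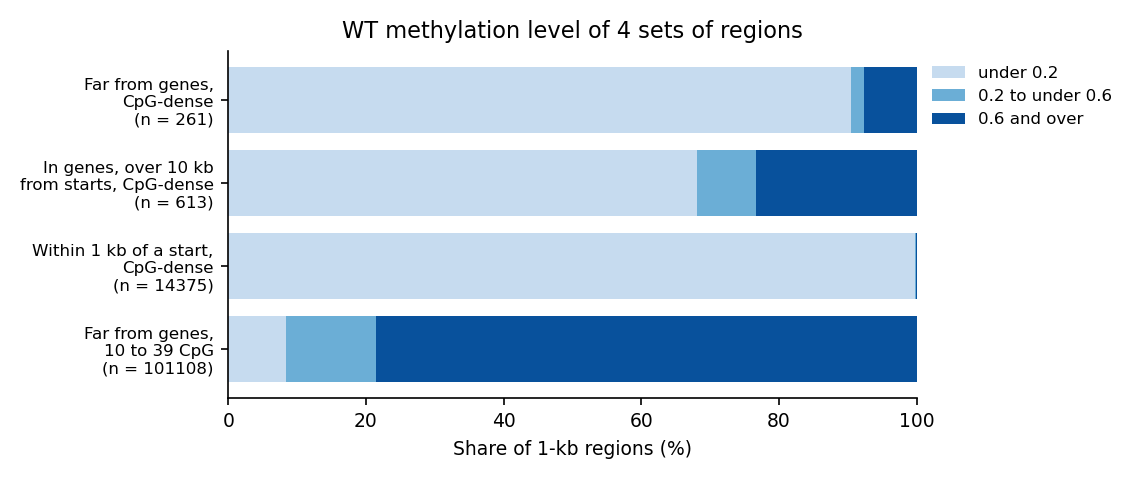
Bars give the share of 1-kb regions, in percent, with a WT level under 0.2, from 0.2 to under 0.6, and of 0.6 and over, for the CpG-dense regions far from genes and the 3 comparison sets. The regions far from genes were unmethylated in 90.4%, between the CpG-dense regions in genes with 68.0% and those at starts with 99.7%.

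Outside genes and more than 10 kb from starts, the share of regions with a WT level under 0.2 rose with the number of CpG positions. It was 1.21% at 1 to 4 positions, 3.50% at 10 to 14, 24.6% at 20 to 24 and 53.2% at 30 to 39. On either side of the limit of 40, the share was 70.2% of 57 regions at 38 to 39 positions and 87.3% of 55 regions at 40 to 41 positions, and it was lower again at 42 to 43 positions, with 77.1% of 35 regions. Above the limit, 122 of 146 regions with 40 to 49 positions were under 0.2, and all 53 with 50 to 59. All 20 regions with a WT level of at least 0.6 had 47 CpG positions or fewer. With 60 or more positions, 61 of 62 regions were under 0.2, and the exception near *Aasdhppt* was at 0.267 in WT. These numbers count covered positions, which in 121 of the 261 regions were fewer than the CpG of the reference. Among the methylated regions, that near *Skint6* had 46 positions covered of 68 CpG, and that near *Chordc1* 45 of 65. By the reference, methylated regions thus reached above 60 CpG as well.

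Among the regions of this kind with a WT level of at least 0.6, the share lower in *Pld6* KO by at least 0.3 rose as well, from 3.32% at 1 to 4 positions to 14.7% at 20 to 24 and 32.8% at 30 to 39. It was 15% above the limit of 40, which is 3 of 20 regions. The masked share of these methylated regions fell from 35.1% at 1 to 4 positions to 24.8% at 10 to 14, then rose to 58.2% at 30 to 39, and was 57.1% above the limit. Its part in the result was not tested.

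**Figure D3:**
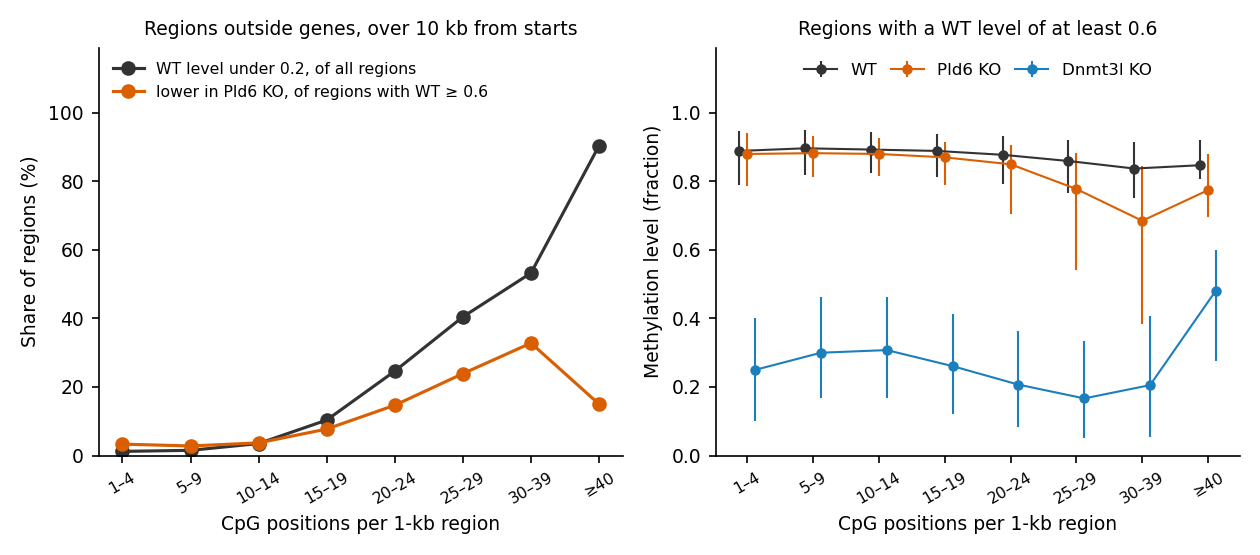
Left, for regions outside genes and more than 10 kb from starts, the share in percent with a WT level under 0.2 and, among those with a WT level of at least 0.6, the share lower in *Pld6* KO by at least 0.3, against the number of CpG positions per 1-kb region. Right, median levels with quartiles of the regions with a WT level of at least 0.6 in each library. The unmethylated share climbs from 1.21% to 90.4%, and the *Dnmt3l* KO median is 0.482 in the 20 regions of the last class, against 0.206 at 30 to 39 positions.

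The unmethylated stretches were short. For the 236 regions with a WT level under 0.2, the median WT level was 0.0103 in the region itself, 0.186 and 0.162 in the regions 1 kb to either side, and 0.786 and 0.792 at 2 kb. From 3 kb outwards it stayed between 0.833 and 0.871. In *Pld6* KO the same positions gave 0.0139, then 0.224 and 0.2, then 0.794 and 0.798. These profiles lay close to each other. In *Dnmt3l* KO the median was 0 in the region and at 1 kb on both sides, 0.167 at 2 kb on both sides, and between 0.220 and 0.333 from 3 kb outwards. Counting neighbouring regions under 0.2, the stretch had a median width of 2 regions in WT, against 2 for *Pld6* KO and 3 for *Dnmt3l* KO. It spanned at most 3 regions for 196 of 236 in WT, against 204 for *Pld6* KO and 125 for *Dnmt3l* KO. Neighbours with under 5 calls were left out of the medians and also ended a stretch, so that low depth can shorten it. At 2 kb, 217 neighbours on each side had enough calls in WT, against 178 and 176 in *Dnmt3l* KO. In *Dnmt3l* KO the methylation around the stretches was low, so that their edges were shallower.

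**Figure D4:**
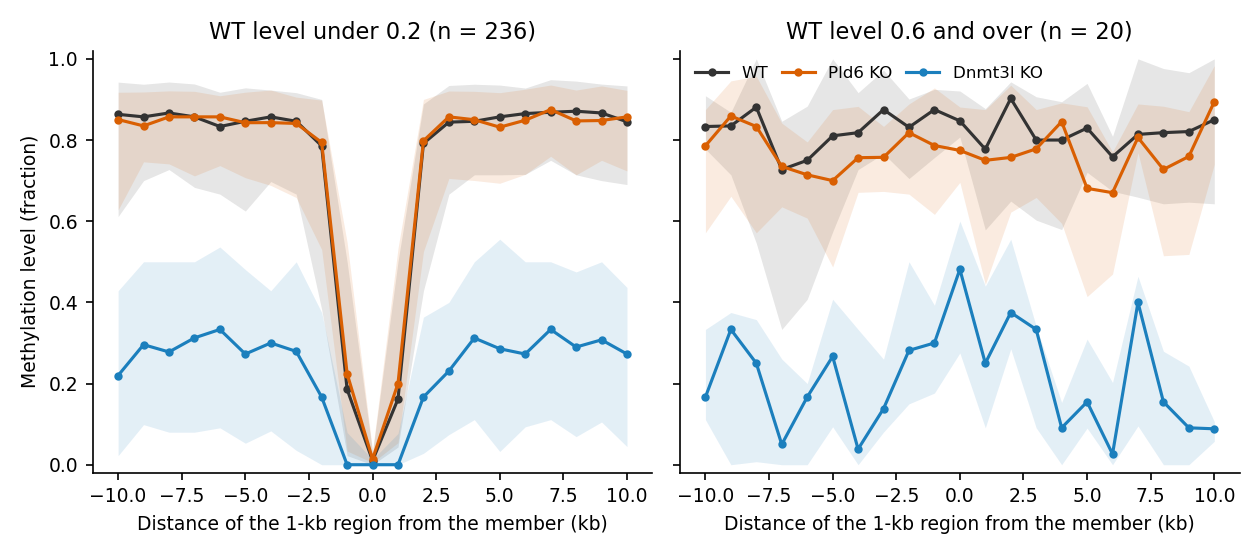
Median methylation level as a fraction, with quartiles shaded, of 1-kb regions at distances of up to 10 kb from the CpG-dense regions with a WT level under 0.2 (left, n = 236) and of 0.6 and over (right, n = 20), in the 3 libraries. On the left, the medians of WT and *Pld6* KO lie above 0.83 from 3 kb outwards and near 0 at the centre. On the right, WT shows no such dip, and the *Dnmt3l* KO median is 0.482 at the centre. The n given are those at the centre. A neighbouring region counts in a library only with at least 5 calls there. In *Dnmt3l* KO this leaves as few as 159 regions on the left and 4 on the right.

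The region with the most CpG positions, chr15:85671001-85672000, lay 32.3 kb from the RefSeq start of *Lncppara*, a long noncoding RNA, and GENCODE places it within that gene. It had 0 methylated calls of 463 in WT, which allows a level of up to 0.0065 by 3 calls, and levels of 0.0152 for *Pld6* KO and 0.00671 for *Dnmt3l* KO. The region chr1:23256001-23257000, 15.8 kb from *Mir30a*, a microRNA gene, held 123 CpG positions and had levels of 0.00474, 0.00810 and 0 in WT, *Pld6* KO and *Dnmt3l* KO. The region chr8:92460001-92461000, 102.7 kb from *Irx5*, a homeobox transcription factor gene, held 101 and had levels of 0.00389, 0.00852 and 0. All of these were unmethylated in every library, and their CpG was not depleted, with ratios of observed to expected CpG of 1, 0.975 and 1. Over all 261 regions this ratio had a median of 0.645, against 0.741 at starts and 0.274 in the regions with 10 to 39 positions.

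The regions had a median distance of 22.7 kb from the nearest start, and 16 lay more than 100 kb away. The share under 0.2 in WT was 98 of 103 at 10 to 20 kb and 11 of 16 beyond 100 kb. RefSeq and GENCODE differ in what they call a gene. Of the 261 regions, 63 touched a gene of GENCODE vM21, which for 30 was a lincRNA and for 14 a protein-coding gene. Of these 63, 62 were under 0.2 in WT, against 174 of the 198 others. The regions formed 232 runs, in which neighbours were within 5 kb, and the longest run held 5 regions.

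The reference marks repeats by soft-masking. Of the bases of the 261 regions, 13.8% were masked, against 21.6% over all autosomal regions with enough calls and 25.8% in those far from genes with 10 to 39 CpG positions. WT levels were higher where more was masked. Of 221 regions with under 20% masked, 215 were under 0.2 in WT and 4 at 0.6 or above. Of 33 with 20% to under 80% masked, these numbers were 21 and 9. All 7 regions with 80% or more masked were at 0.6 or above. The 20 regions with a WT level of at least 0.6 were masked over 57.1% of their bases, against 9.94% for the 236 unmethylated ones.

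Sequence letters were searched on both strands of the 261 regions. AAGATGGCG, letters of the YY1 motif, was found in 5 of the 20 methylated regions and in 3 of the 236 unmethylated ones, against 3.83% of all CpG-dense autosomal regions. Of the 5, 4 share sequence with each other and make up 1 family, described below. GGGGCGGGG, letters of the SP1 motif, was found in 24.9% of the 261 regions and in 30.9% of all CpG-dense ones. It was in 1 of the 20 methylated and 62 of the 236 unmethylated regions. Letters of the NRF1, ETS and CRE motifs were found in 0 of the 20, and in 4, 7 and 5 of the 236. TGCCGC, the core that ZFP57 binds when methylated, was found in 45.6% and 51.9%. These matches describe letters and not binding.

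Few of the 261 regions were lower in *Dnmt3l* KO, and few were methylated in WT. The study treats a drop of at least 0.3 as severe for retrotransposon consensus sequences, and here the limit was applied to single 1-kb regions. A level at least 0.3 below WT was found in 17 regions or 6.51%, against 69.1% of all autosomal regions. Among regions with a WT level of at least 0.3, 17 of 22 or 77.3% (56.6% to 89.9%) fell by as much, against 78.4% of all such regions. Their share was thus near that of all such regions, with a wide interval. At a WT level of at least 0.6 the share was 75% of 20 regions, against 79.2% of all such autosomal regions. It was 88.1% of such CpG-dense regions in genes and 89.9% of such regions far from genes with 10 to 39 CpG positions. In *Pld6* KO, 4 of the 261 regions, or 1.53%, were lower by at least 0.3, against 1.79% of all regions. Among those with a WT level of at least 0.3 these were 4 of 22 or 18.2% (7.31% to 38.5%), against 2.03%. With at least 30 calls in each library, 222 regions remained, and the regions lower by at least 0.3 numbered 1 for *Pld6* KO and 9 for *Dnmt3l* KO, in place of 4 and 17. Increases of at least 0.3 were found in 0 of the 261 regions in either KO (95% Wilson interval 0% to 1.45%). Of all regions, 1.39% rose by as much in *Pld6* KO and 0.0195% in *Dnmt3l* KO, both within this interval.

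For each region the calls were also compared between libraries by Fisher's exact test, two-sided and adjusted by Benjamini-Hochberg over all 603716 regions. This compares libraries and not genotypes. At an adjusted p under 0.05, 37 of the 261 regions (14.2%) were lower in *Dnmt3l* KO than in WT, against 68.3% of all regions, and 1 (0.383%) was higher, against 0.0192%. The higher one, near *Rpp21*, was at 0 in WT and 0.0612 in *Dnmt3l* KO. In *Pld6* KO, 8 regions (3.07%) were lower, against 1.13%, and 7 (2.68%) were higher, against 0.834%. The test gains power with calls, and these regions had more calls than the median of 30 in WT over all regions.

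The 20 regions methylated in WT had median levels of 0.847 in WT, against 0.774 for *Pld6* KO and 0.482 for *Dnmt3l* KO. All 20 were lower in *Dnmt3l* KO than in WT, with a median difference of 0.367, and the calls of 18 differed by Fisher's exact test at an adjusted p under 0.05. In *Pld6* KO, 17 of 20 were lower, with a median difference of 0.0814, and the calls of 3 differed. The median ratio of *Dnmt3l* KO to WT was 0.563. It was 0.367 in the 143 CpG-dense regions in genes with a WT level of at least 0.6, 0.329 in the 79367 such regions with 10 to 39 CpG positions far from genes, and 0.449 in all 495284 such autosomal regions. The median difference of *Dnmt3l* KO from WT in these sets was 0.572, 0.582 and 0.490 in the same order, larger than in the 20 regions. How many of their regions were lower at any size was not counted, and Fisher's exact test depends on the number of calls. The quartiles of the *Dnmt3l* KO level were 0.275 and 0.6 in the 20 regions, 0.119 and 0.5 in the regions in genes, 0.143 and 0.444 in the CpG-poorer ones, and 0.231 and 0.565 in all such autosomal regions, so that the distributions overlapped. The 20 regions had a median of 33 calls in *Dnmt3l* KO. For *Pld6* KO the median difference from WT was 0.0213 in the regions in genes, 0.0202 in the CpG-poorer ones and 0.0152 in all such autosomal regions. A decrease of at least 0.3 in *Pld6* KO was found in 15% of the 20 regions. In the other sets it was found in 5.59%, 5.71% and 1.99%, in the same order.

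**Figure D5:**
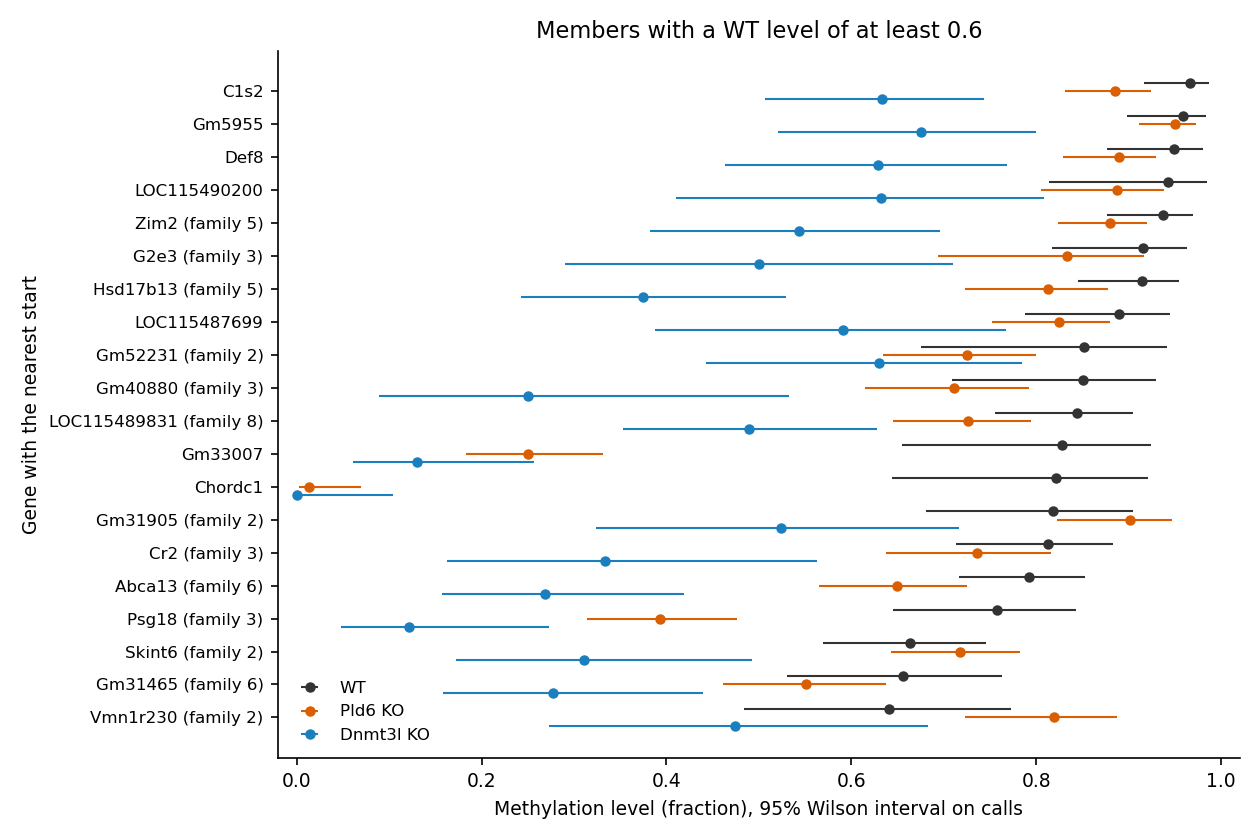
Methylation levels as fractions, with 95% Wilson intervals on the calls, of the 20 regions with a WT level of at least 0.6 in WT, *Pld6* KO and *Dnmt3l* KO, each named by the gene with the nearest start and ordered by WT level. Sequence families are given in brackets. *Dnmt3l* KO lies left of WT in every region, and *Pld6* KO lies far left of WT near *Chordc1*, *Gm33007* and *Psg18*.

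The highest level in *Dnmt3l* KO belonged to chr12:88092001-88093000, 32.2 kb from *Gm5955*, of which a stretch is shown above. Its levels were 0.958 in WT, against 0.950 for *Pld6* KO and 0.675 for *Dnmt3l* KO (0.520 to 0.799, 40 calls). Next came chr6:124607001-124608000, 28.6 kb from *C1s2*, a complement protease gene, with 0.966, 0.885 and 0.633. The region chr8:123428001-123429000, 14.5 kb from the RefSeq start of *Def8* and inside that gene in GENCODE, had levels of 0.949, 0.889 and 0.629. These regions kept about the same share of their WT level in *Dnmt3l* KO, with ratios of 0.704, 0.656 and 0.662. Near *Zim2*, an imprinted zinc-finger gene, chr7:6616001-6617000 had levels of 0.938, 0.880 and 0.543, and chr3:62158001-62159000, 151.9 kb from *LOC115489831*, had levels of 0.844, 0.726 and 0.489. In all 5 the level in *Pld6* KO was lower than in WT by 0.119 or less, with an adjusted p of at least 0.296 in Fisher's exact test.

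The largest decrease in *Dnmt3l* KO among the regions with at least 30 calls in each library was at chr7:18380001-18381000, 25.5 kb from *Psg18*, a pregnancy-specific glycoprotein gene. The level was 0.757 of 70 calls in WT (0.645 to 0.843) and 0.393 of 135 in *Pld6* KO (0.314 to 0.477). In *Dnmt3l* KO it was 0.121 of 33 (0.0482 to 0.273). The intervals do not overlap, and the adjusted p of Fisher's exact test was 0.000143 for *Pld6* KO and 3.71e-08 for *Dnmt3l* KO. It was also the largest decrease in *Pld6* KO among these regions. The region chr5:103950001-103951000 near *Hsd17b13*, a lipid droplet enzyme gene, fell from 0.914 to 0.375 in *Dnmt3l* KO and was at 0.812 in *Pld6* KO. The region chr11:9889001-9890000, 598.9 kb from *Abca13*, a lipid transporter gene, fell from 0.793 to 0.268 and was at 0.649 in *Pld6* KO. The region chr1:30090001-30091000 near *Gm31465* fell from 0.656 to 0.278 and was at 0.551 in *Pld6* KO.

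Of the 4 regions lower by at least 0.3 in *Pld6* KO, 1 was that near *Psg18* and 1 lay on chromosome 18, with a WT level of 0.413. The other two had under 30 calls in WT and are named after their values were seen. At chr9:18009001-18010000, masked over 99.8%, the level was 0.821 of 28 calls in WT (0.644 to 0.921), 0.0130 in *Pld6* KO, where 1 of 77 calls was methylated, and 0 of 33 calls in *Dnmt3l* KO, which allows up to 0.0909 by 3 calls. This was the 1 region that matched an amplicon of the study's bisulfite PCR at 90% identity over 90% of its length, namely L1Md_A, the 5′ part of a young LINE-1 family. At chr4:4343001-4344000, masked over 82.5%, the level was 0.828 of 29 calls in WT, against 0.25 of 128 for *Pld6* KO and 0.130 of 46 for *Dnmt3l* KO. Of the 65 CpG of the LINE-1 region in the reference, 45 were covered, and young repeats are reached only where reads map uniquely.

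At lower WT levels, chr12:19175001-19176000 near *Gm40843* was at 0.333 in WT, against 0.101 for *Pld6* KO and 0 of 45 calls for *Dnmt3l* KO, which allows up to 0.0667 by 3 calls. The region chr8:20122001-20123000, near *Gm36166*, was at 0.154 of 233 calls in WT (0.114 to 0.207) and 0.00803 of 249 in *Pld6* KO (0.00220 to 0.0288). In *Dnmt3l* KO it was 0 of 100 calls, which allows up to 0.03 by 3 calls. Its masked share was 4.0%. Both regions belonged to families of similar sequence, and GENCODE marks a processed pseudogene at the latter.

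With no repeat annotation at hand, the regions were grouped by sequence. Those aligned by blastn at 80% identity or more over at least 300 bp formed 9 families of 30 regions. Of the 20 methylated regions, 13 belonged to a family, against 14 of the 236 unmethylated ones. The largest family held 9 regions, all on chromosome 12. Its levels ranged from 0 to 0.333 in WT, against 0 to 0.113 for *Pld6* KO and 0 to 0.0217 for *Dnmt3l* KO, with 32 to 341 calls in WT. In WT 7 of the 9 were under 0.2, among them chr12:18610001-18611000 with 102 CpG positions, which was at 0.00587 in WT, against 0.00755 for *Pld6* KO and 0 of 59 calls for *Dnmt3l* KO.

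A family of 4 regions near *Gm31905*, *Skint6*, *Gm52231* and *Vmn1r230* carried the YY1 letters in each member. Near *Gm31905* the levels were 0.818 in WT, against 0.901 for *Pld6* KO and 0.524 for *Dnmt3l* KO. Near *Skint6* they were 0.664, 0.718 and 0.310. Near *Vmn1r230* they were 0.641, 0.819 and 0.474. These 3 are the ones among the 20 methylated regions without a lower level in *Pld6* KO than in WT. The adjusted p of each was at least 0.446 in Fisher's exact test. The fourth, near *Gm52231*, was at 0.852, 0.725 and 0.630.

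Another family of 4 lay near *Cr2*, *Psg18*, *Gm40880* and *G2e3*. Its levels lay between 0.757 and 0.915 in WT, between 0.393 and 0.833 in *Pld6* KO, and between 0.121 and 0.5 in *Dnmt3l* KO. The 3 besides *Psg18* were at 0.711 or above in *Pld6* KO. Members of the same family thus differed in *Pld6* KO. A looser match, of at least 70% identity over 100 bases and chosen after the values were seen, joined 7 regions to the amplicon of RLTR6, an LTR retrotransposon. All 7 were among the 20 methylated ones, with levels between 0.393 and 0.950 in *Pld6* KO and between 0.121 and 0.675 in *Dnmt3l* KO. They include the regions near *Gm5955* and *Psg18* whose stretches are printed above. The same looser match joined 2 regions to the amplicon of RLTR1B-MMERGLN_I. These were chr4:4343001-4344000 near *Gm33007* and chr12:19175001-19176000 near *Gm40843*, both lower in *Pld6* KO as given above.

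Some regions were higher in *Pld6* KO. The largest increase was at chr4:12113001-12114000, 23.5 kb from *Tmem67*, a gene for a protein of the cilium. The level was 0.0337 of 89 calls in WT (0.0115 to 0.0945) and 0.314 of 86 in *Pld6* KO (0.226 to 0.418). In *Dnmt3l* KO it was 0 of 38 calls, which allows up to 0.0789 by 3 calls. The intervals of WT and *Pld6* KO do not overlap, and the adjusted p of Fisher's exact test was 8.43e-05. Among the 236 regions under 0.2 in WT, 3 reached 0.2 in *Pld6* KO, this one included. The others lay near *Gm31190*, with 0.0206 in WT, against 0.201 for *Pld6* KO and 0.0588 for *Dnmt3l* KO, and near *Errfi1*, with 0.156, 0.2 and 0. For *Pld6* KO their adjusted p in Fisher's exact test was 0.00164 and 0.908. The upper quartile in *Pld6* KO of the regions under 0.2 in WT was 0.0346 here, against 0.164 in all such autosomal regions. It was 0.239 in such regions far from genes with 10 to 39 CpG positions. In such CpG-dense regions it was 0.124 inside genes and 0.0154 within 1 kb of a start. Higher levels in *Pld6* KO were thus not particular to the regions far from genes. A region near *Zfp369* was at 0 of 82 calls in WT, which allows up to 0.0366 by 3 calls. In *Pld6* KO it was at 0.154 of 78, with an adjusted p of 0.00936 in the same test. It had 13 calls in *Dnmt3l* KO, with 0 methylated.

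The remaining named increases, apart from that of a deeply covered region described below, were as follows. The region chr16:18976001-18977000 near *Gm15798* was at 0.246 in WT, against 0.356 for *Pld6* KO and 0 of 62 calls for *Dnmt3l* KO. The region chr11:98067001-98068000 near *Stac2* was at 0.0968, 0.181 and 0. The region chr12:19704001-19705000 near *Gm40880* was at 0.0112, 0.0924 and 0. None of these reached an adjusted p under 0.05, the lowest being 0.189.

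The deepest regions stood apart from all others. A run of 3 neighbouring regions at chr17:39843001-39846000 had 11647 to 14585 calls in WT. In mm10 this stretch is known to hold a copy of the unit of ribosomal RNA genes, which the genome carries in many copies. The part of other copies in these values was not tested. Its middle region, with 126 CpG positions, was at 0.0656 in WT (0.0616 to 0.0697) and 0.150 in *Pld6* KO (0.146 to 0.154). In *Dnmt3l* KO it was 0.0414 (0.0366 to 0.0468). With chr3:5860001-5861000, which had 4063 calls in WT, these 4 regions lay between 0.0595 and 0.0742 in WT, between 0.0990 and 0.150 in *Pld6* KO, and between 0.0336 and 0.0414 in *Dnmt3l* KO. *Pld6* KO was thus highest in each of the 4, by at most 0.0844 over WT. The other two of the 6 deeply covered regions differed from each other. The region chr6:3201001-3202000, with 1882 calls in WT, was at 0.108 in WT, against 0.0710 for *Pld6* KO and 0.0172 for *Dnmt3l* KO, with an adjusted p of 0.00218 for *Pld6* KO in Fisher's exact test. The region chr19:61266001-61267000, with 1145 calls in WT, was at 0.0279, 0.0444 and 0.00718, with an adjusted p of 0.398 for *Pld6* KO in the same test. The 4 deepest are among the 7 regions that Fisher's exact test placed higher in *Pld6* KO, and the intervals say nothing of how mice or libraries vary.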

How the data were processed

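The data are post-bisulfite adaptor tagging libraries of P7 spermatogonia, 1 per genotype, read from 1 end. Per the paper's methods, read ends and low-quality stretches were removed and unique alignments to mm10 by Bismark were kept (version not given in the sources used here). At every covered CpG the authors deposited 2 counts, those of methylated and of unmethylated calls, beside a fraction. In all 3 libraries that fraction was identical to the methylated share computed from the counts. Whether duplicate reads were removed is not stated, so that deep or repeated stretches can hold repeated reads.

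Counts were pooled per 1-kb region with numpy 2.4.6 and pandas 2.3.3 in Python 3.11.15. Genes and soft-masking came from RefSeq GRCm38.p6, and further genes from GENCODE vM21. The tool behind the masking is not given in the sources used here. Fisher's exact test was checked against scipy 1.17.1 and tested on simulated data. Sequences were compared by blastn 2.17.0. Regions and lists were chosen with earlier results of these data known. Regions named had at least 30 calls in each library, lay outside chromosome 18 and were the first by rank within 5 kb. They were the 5 with the largest decrease in either KO, the 5 with the highest *Dnmt3l* KO level, the 5 with the largest *Pld6* KO increase, and, among those with under 20% masked and a WT level under 0.1, the 5 with the most CpG positions. Regions outside this rule were named after their values were seen. The alternatives changed the minimum of calls and of CpG positions, the grid, the distance, the annotation, the sites of high coverage, the runs and the size of a decrease.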

Additional observations from a re-analysis of the deposited data

How the results depend on the processing

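No paired analysis was possible because each genotype has 1 library, and the fewest calls of a region were 27, 42 and 10 in WT, *Pld6* KO and *Dnmt3l* KO. For WT, *Pld6* KO and *Dnmt3l* KO in this order, the pooled level was 0.0584, 0.105 and 0.0292 with at least 30 calls, 0.173, 0.191 and 0.0576 with 30 CpG positions or more, 0.0504, 0.109 and 0.0277 with 50 or more, 0.0710, 0.111 and 0.0334 on a grid shifted by 500 bp, 0.0694, 0.132 and 0.0371 beyond 50 kb from starts, and 0.0655, 0.105 and 0.0287 with genes of curated transcripts only. It was 0.0575, 0.0663 and 0.0256 without sites of over 20 calls, 0.0661, 0.0885 and 0.0292 with 1 region per run, and 0.0715, 0.0728 and 0.0303 as a mean of site levels. Chosen after seeing the data, it was 0.0574, 0.0663 and 0.0255 without deeply covered regions, and 0.0673, 0.0796 and 0.0284 without regions in GENCODE genes. The order of the 3 libraries was the same in each of these settings, and the pooled level weights each region by its calls. As a mean of site levels, WT and *Pld6* KO were nearly equal. The median of WT minus *Pld6* KO over the 261 regions was 0. The number of regions lower in *Pld6* KO or *Dnmt3l* KO, 4 and 17 as reported, was 1 and 9 with at least 30 calls, 124 and 358 of 1215 regions with 30 CpG positions or more, 0 and 0 of 115 with 50 or more, 8 and 26 of 295 on the shifted grid, 1 and 7 of 50 beyond 50 kb, and 8 and 27 of 566 with curated genes only. It was 2 and 8 for a decrease of at least 0.4, and 8 and 37 by Fisher's exact test. Regions with a WT level under 0.2 numbered 744 of 1215, 114 of 115, 41 of 50 and 523 of 566 with 30 or more CpG positions, 50 or more, beyond 50 kb and with curated genes only. These settings change the number of regions examined. With 5 calls, 1 region was added and the counts of decreases stayed at 4 and 17.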

Other observations

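On chromosome X, which the selection left out, 8 regions met the same limits. All 8 were under 0.2 in WT, with median levels of 0.0263 for WT, 0.0164 for *Pld6* KO and 0 for *Dnmt3l* KO. Their pooled WT level was 0.0631 (95% Wilson interval 0.0459 to 0.0860), and they had a median of 58 WT calls. The pooled level in *Pld6* KO was 0.0537 (0.0395 to 0.0725), below that of WT.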
